A study of Mus musculus with 16 samples.

Results

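The comparison set regulatory T cells (Treg) that carried both CD103 and ICOS on their surface against Treg that carried neither, after both had been activated in culture. CD103 is an integrin chain, encoded by Itgae, that binds E-cadherin on epithelium, and ICOS is a costimulatory receptor. The 4 arrays compared, of 16 in the series, were chosen by their labels: 2 of activated CD103pos ICOSpos cells (called double-positive here) and 2 of activated CD103neg ICOSneg cells (double-negative). All cells came from pooled lymph nodes of several sites of wild type female C57BL/6 mice aged 8 to 12 weeks, with no added allele or transgene, and were split by CD103 and ICOS on the day of isolation. For activation, 200000 Treg of a subset spent 3 days in a suppression assay with 1000000 naive CD4 cells of the Ly5.1 congenic strain, 2000000 irradiated Rag2-/- splenocytes, with anti-CD3 in solution at 0.5 ug/ml. A second sort for Ly5.1neg CD4pos CD25pos cells recovered them, so the subset names describe the cells that entered the culture. Fresh double-positive and double-negative cells (2 arrays each) were taken directly after the first sort. The other subsets, CD103 single-positive (CD103pos ICOSneg) and ICOS single-positive (CD103neg ICOSpos), were measured in both states as well. The design text speaks of 2 independent experiments and the labels of biological replicates 1 and 2, and the mice were pooled. P-values therefore measure the spread between pools, taken over all groups fitted and not over the compared groups alone.

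Treg restrain other lymphocytes and depend on the transcription factor Foxp3. After antigen contact they pass from a resting state, kept by repressors such as Bach2, to an effector state with inhibitory receptors, tissue homing receptors and suppressive molecules such as interleukin 10. Treg of barrier tissues can also carry programmes of helper T cells. Type 17 cells make interleukin 17A, interleukin 17F and interleukin 22, and type 2 cells make interleukins 4, 5 and 13.

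The activated arrays followed their labels for the sort genes. Itgae had log2 intensities of 7.31 and 7.95 on the activated double-negative arrays (replicates 1 and 2) and 11.18 and 11.08 on the double-positive arrays. Icos had 11.63 and 11.86 against 12.91 and 12.87. Foxp3 was high throughout, with 12.30 and 11.69 on the double-negative and 12.45 and 12.29 on the double-positive arrays, a difference that missed the threshold (log2 difference 0.37, adjusted p = 0.446). Cd4, Cd3e and Il2ra (CD25) lay between 11.63 and 13.48 on these 4 arrays. The replicates were not equally close. Between the activated double-negative arrays 413 genes differed more than 2-fold, against 167 between the double-positive arrays and 24 to 148 within each fresh pair. Activated ICOS single-positive replicate 2 differed more than 2-fold from its partner in 685 genes and was left out.

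Values are deposited log2 intensities, and differences are double-positive minus double-negative on that scale, so 1 unit is 2-fold. In the activated comparison, rise, gain and fall describe double-positive against double-negative cells, and not a change from fresh to activated cells. A gene passed at an adjusted p below 0.05 in limma, with Benjamini-Hochberg adjustment over 19938 genes. The fit took its spread per gene from all 15 arrays kept. These include the fresh pairs, which were closer than the activated double-negative pair. The p-values of the activated contrast thus rest in part on the spread of fresh cells. After activation 337 genes passed, 1.69% of those tested, of which 191 were higher (0.958%) and 146 lower (0.732%) in double-positive cells. Of these, 122 were more than 2-fold higher and 56 more than 2-fold lower. The shares over all genes, 0.958% higher and 0.732% lower, are the background of each list count below. On all 337 the double-positive arrays both lay beyond both double-negative arrays. That alone was common: both double-positive arrays lay above both double-negative arrays for 26.4% of all genes and below them for 22% of them. The share of calls that were higher, 56.7%, depended on scaling and on single arrays. It was 73.1% after quantile normalization (256 higher, 94 lower) and 42.6% after centring each array on its median (159 and 214). Without activated double-positive replicate 2 it was 82.9% (102 and 21), and without double-positive replicate 1 it was 38.7% (123 and 195).

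Large gains were in the type 17 cytokine genes Il17a, Il17f and Iltifb and in the type 2 cytokine gene Il13. Il17a stood at 6.12 and 6.93 on the double-negative arrays and at 11.62 and 11.56 on the double-positive arrays. It thus rose 33.5-fold (probe set 10345032, log2 difference 5.07, SE 0.25, adjusted p = 6.53e-06). Il17f, its paralogue, stood at 6.94 and 7.51 against 10.87 and 10.23 (probe set 10353415, difference 3.32, SE 0.30, adjusted p = 0.000456). Iltifb, a near-identical copy of the interleukin 22 gene whose signal may hold both genes, stood at 5.27 and 4.91 against 9.18 and 8.88 (difference 3.94, SE 0.19, adjusted p = 6.53e-06). For all 3 genes the groups lay far apart, and each also passed with any 1 of the 4 arrays left out. With all 16 arrays, however, none of the 3 passed, and with the 4 compared arrays alone Il17f missed the threshold. In bulk RNA, more cells with a message and more message per cell cannot be told apart.

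Il13, the type 2 cytokine that drives mucus and eosinophil responses, stood at 7.79 and 9.32 on the double-negative and at 13.16 and 12.43 on the double-positive arrays. It rose 18.9-fold (difference 4.24, SE 0.40, adjusted p = 0.000556), although double-negative replicate 2 was well above replicate 1. Il5, which lies in the same cytokine cluster, stood at 6.15 and 8.62 against 11.41 and 9.29 and missed the threshold (difference 2.96, adjusted p = 0.084). Il4, the defining cytokine of type 2 cells, stood at 5.79 and 6.25 against 7.66 and 6.28 (difference 0.95, adjusted p = 0.23). Csf2, which encodes the growth factor GM-CSF, rose 4.80-fold, from 6.20 and 5.76 to 8.65 and 7.83 (SE 0.23, adjusted p = 0.000953). Il13 and Csf2 missed the threshold with all 16 arrays and with the 4 compared arrays alone, Csf2 also with the 7 activated arrays. Il6 rose too, at a low level (3.68 and 4.01 against 5.28 and 4.60, difference 1.09). Without double-negative replicate 1 or double-positive replicate 1 it missed the threshold, with 0.93 and 0.75.

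Most other cytokines did not pass. Of 28 measured cytokines of T cells 5 rose (Il17a, Il13, Il17f, Csf2 and Il6) and 0 fell, with a median difference of 0.63 against 0.01 for all genes. Il9 was high in replicate 1 and low in replicate 2 of both groups, with 9.63 and 5.56 on the double-negative and 10.97 and 6.64 on the double-positive arrays. Ifng stood at 6.83 and 10.16 against 8.27 and 7.96, and Il21 at 6.21 and 9.60 against 7.32 and 6.65, so double-negative replicate 2 was the highest array for both. Without double-negative replicate 1, 4 of the 28 rose, and Ifng, Il21 and Tgfb3 were lower, by -2.05, -2.62 and -2.05. Without double-positive replicate 2, 8 rose. Tnf lay between 9.59 and 9.78 on all 4 arrays, and Il2, which Treg normally do not make, at 6.56 and 5.87 against 8.16 and 5.91.

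**Figure D1:**
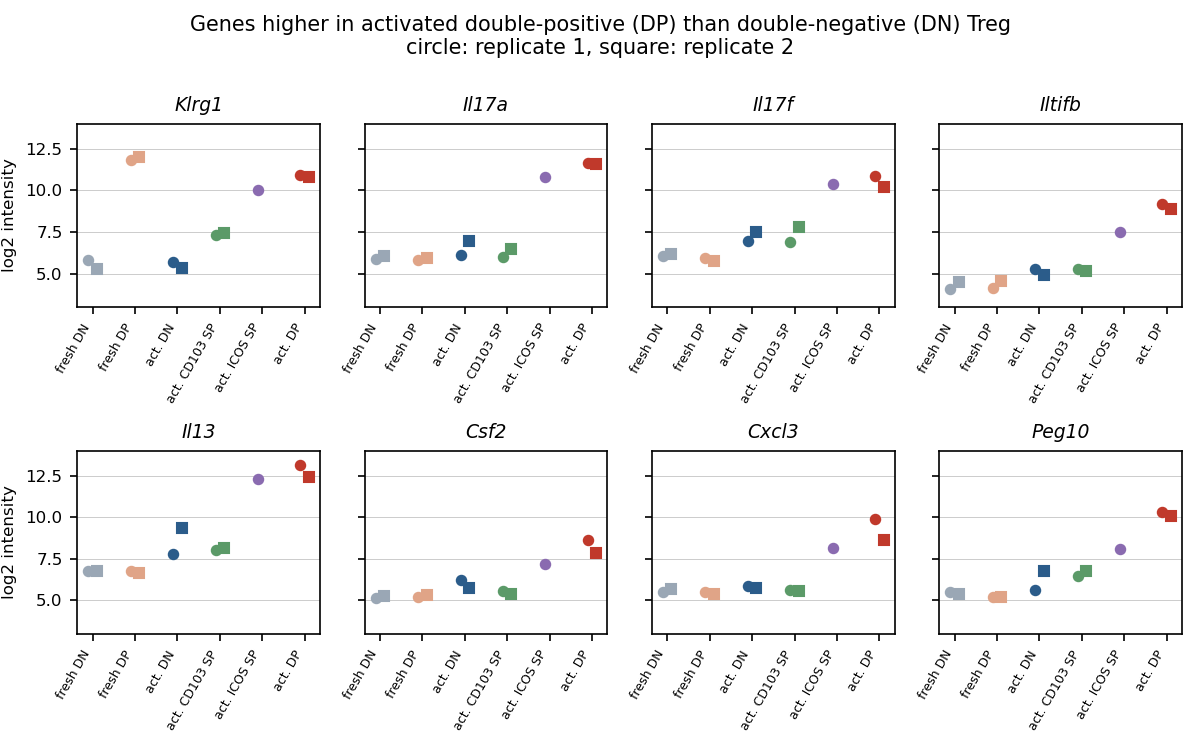
Log2 intensity (vertical axis) of 8 genes on the fresh double-negative and double-positive arrays and on the activated arrays kept of each subset. Each array has 1 point, with circles for replicate 1 and squares for replicate 2. Klrg1 is high in fresh and activated double-positive cells, while the 7 other genes are at one low level in all fresh cells shown and highest in activated double-positive cells, with the activated ICOS single-positive array next.

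The promoters of the 4 cytokine genes with the largest gains are shown because their messages rose together, each as the 250 bases before the RefSeq gene start (GRCm38.p6), read 5′ to 3′ along the gene. Capitals mark matches on either strand to AGGTCA (the element bound by ROR nuclear receptors, the family of the type 17 regulator), TGANTCA (AP-1) or GGAAAA (the NFAT core).
Il17a, chr1:20730655-20730904, plus strand: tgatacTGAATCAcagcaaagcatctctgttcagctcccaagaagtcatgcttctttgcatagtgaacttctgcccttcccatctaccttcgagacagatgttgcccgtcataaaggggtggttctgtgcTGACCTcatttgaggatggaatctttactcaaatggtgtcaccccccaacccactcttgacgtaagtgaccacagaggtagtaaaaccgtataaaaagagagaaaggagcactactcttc
Il17f, chr1:20784271-20784520, minus strand: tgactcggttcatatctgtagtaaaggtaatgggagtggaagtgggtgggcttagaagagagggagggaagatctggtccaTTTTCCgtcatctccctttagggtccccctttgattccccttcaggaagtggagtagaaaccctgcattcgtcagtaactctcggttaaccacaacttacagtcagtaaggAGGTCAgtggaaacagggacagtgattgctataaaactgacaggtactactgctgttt
Iltifb, chr10:118295039-118295288, minus strand: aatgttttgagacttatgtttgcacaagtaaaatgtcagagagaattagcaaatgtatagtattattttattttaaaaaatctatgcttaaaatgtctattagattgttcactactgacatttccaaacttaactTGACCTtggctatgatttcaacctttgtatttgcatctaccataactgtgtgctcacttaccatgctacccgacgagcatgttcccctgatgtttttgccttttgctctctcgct
Il13, chr11:53634703-53634952, minus strand: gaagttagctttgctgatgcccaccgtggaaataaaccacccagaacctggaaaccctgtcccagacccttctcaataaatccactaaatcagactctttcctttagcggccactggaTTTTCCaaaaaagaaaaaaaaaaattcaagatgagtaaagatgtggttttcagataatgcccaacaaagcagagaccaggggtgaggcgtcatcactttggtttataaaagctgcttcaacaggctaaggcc
The window of Il17a holds 1 AGGTCA, on the opposite strand, as TGACCT, and 1 TGANTCA. That of Il17f holds 1 AGGTCA and 1 GGAAAA (as TTTTCC), that of Iltifb 1 AGGTCA (as TGACCT) and that of Il13 1 GGAAAA (as TTTTCC). Among 32851 RefSeq promoter windows of the same length, AGGTCA occurs in 14%, TGANTCA in 6.75% and GGAAAA in 20.4%, and no pair of these motifs overlaps in the capitals shown. The windows of Csf2 and Cxcl3 hold none of the 3. These are letter matches in short windows and no measure of binding.

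Chemokine ligands that recruit neutrophils were higher as well. Cxcl3 stood at 5.85 and 5.73 on the double-negative and at 9.92 and 8.65 on the double-positive arrays and rose 11.3-fold (difference 3.49, SE 0.30, adjusted p = 0.000354). It missed the threshold with all 16 arrays and with the 4 compared arrays alone. Cxcl2, a close relative, stood at 4.87 and 4.79 against 6.27 and 5.65 (difference 1.13), and Cxcl10, which interferons induce, at 6.03 and 5.85 against 8.01 and 6.88 (difference 1.51). These were the 3 of 14 measured chemokine ligands that rose, and 0 fell, against 0.958% and 0.732% of all genes. Cxcl2 and Cxcl10 missed the threshold without either double-negative array (1.17 and 1.09 for Cxcl2, 1.6 and 1.42 for Cxcl10), and Cxcl2 also without double-positive replicate 1 (0.82). Cxcl5, a further neutrophil chemokine that is not in that list and was named after its values were seen, passed as well (4.97 and 5.02 against 6.50 and 5.62, difference 1.07). It missed the threshold without either double-negative array (1.04 and 1.09) or double-positive replicate 1 (0.63).

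Klrg1, an inhibitory lectin-like receptor of highly differentiated T cells, showed the largest gain of all named genes. It stood at 5.67 and 5.35 on the double-negative and at 10.91 and 10.81 on the double-positive arrays, 40.8-fold higher (probe set 10547590, difference 5.35, SE 0.18, adjusted p = 5.28e-07). It was the 1 of 16 measured killer lectin-like receptors that rose. Among 30 genes of costimulation and coinhibition, the inhibitory receptor Cd200r1 (6.96 and 7.22 against 8.66 and 8.93, difference 1.70) and the TNF receptor Tnfrsf1b (10.22 and 10.30 against 11.20 and 11.40, difference 1.04) rose. Btla, an inhibitory receptor of resting lymphocytes, fell (9.42 and 9.42 against 8.32 and 7.95, difference -1.29). All 3 missed the threshold without double-negative replicate 1 (1.57, 1.0 and -1.29) and without double-positive replicate 2 (1.57, 0.94 and -1.10).

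Of 28 measured genes of cytokine receptors and their regulators 7 rose and 0 fell, against 0.958% and 0.732% of all genes. The list median was 0.31, against 0.01 for all genes. Of the 7 that rose, 4 belong to the interleukin 1 and 18 systems. Il18r1, the binding chain of the interleukin 18 receptor, stood at 6.94 and 7.10 against 9.07 and 9.17 (difference 2.10, SE 0.17, adjusted p = 0.000277). Its partner chain Il18rap rose by 1.08. Il1r2, a decoy receptor that traps interleukin 1, stood at 8.47 and 10.27 against 11.66 and 11.75 (difference 2.33), and Il1rn, the interleukin 1 receptor antagonist, at 7.21 and 8.38 against 9.79 and 10.01 (difference 2.11). Il17rb, the receptor for interleukin 25, stood at 6.41 and 6.19 against 8.90 and 8.13 (difference 2.22, SE 0.29, adjusted p = 0.00513). The other members that rose were the interferon gamma receptor chain Ifngr1 (0.88) and Il6st, the signalling chain of the interleukin 6 family (0.80). Il23r, the receptor for the cytokine that sustains type 17 cells, stood at 6.44 and 8.61 against 10.01 and 9.87 and missed the threshold (difference 2.42, adjusted p = 0.088). The count was 2 without double-positive replicate 2 and 3 without double-positive replicate 1. Il1r2 and Il1rn missed the threshold without either double-positive array (2.29 to 2.38 and 2.0 to 2.22), and Il1rn also without double-negative replicate 1 (1.52). Il18rap, Ifngr1 and Il6st missed it without double-negative replicate 1 (0.97, 0.58 and 0.73) or double-positive replicate 2 (1.27, 0.86 and 0.57). Il18rap and Il6st did so also without double-negative replicate 2 (1.19 and 0.87), and Il18rap and Ifngr1 without double-positive replicate 1 (0.89 and 0.90).

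Some receptors for homing to tissue were higher. Cxcr6, a chemokine receptor of tissue T cells, stood at 7.02 and 8.41 on the double-negative and at 10.90 and 10.57 on the double-positive arrays, 8.11-fold higher (difference 3.02, SE 0.40, adjusted p = 0.00547). Gpr15, a homing receptor for the large intestine, stood at 6.55 and 7.38 against 8.83 and 8.96 (difference 1.93), and Ccr9, one for the small intestine, at 5.35 and 5.74 against 6.87 and 7.0 (difference 1.39). These were the 3 of 19 chemokine receptors that rose, and 0 fell, against 0.958% and 0.732% of all genes (median difference 0.71). Ccr9 stood higher in fresh cells, at 9.39 and 8.71 on the double-negative and 10.84 and 10.89 on the double-positive arrays. Of 21 integrin and adhesion genes 3 rose: the collagen receptor chain Itga2 (6.13 and 6.73 against 7.92 and 7.85), Itgb7 (10.21 and 10.41 against 11.12 and 11.23), which pairs with CD103, and Itgb8 (9.60 and 9.56 against 10.14 and 10.42), which activates TGF-beta. Their differences were 1.46, 0.87 and 0.70. Over all genes 0.958% rose. Without double-positive replicate 2, Gpr15 (1.86), Ccr9 (1.33), Itgb7 (0.81) and Itgb8 (0.55) missed the threshold, and 1 chemokine receptor rose. Gpr15 (1.85) and Itgb8 (0.62) missed it after median centring, and Itgb8 also with the dim gene filter and with the trended, robust variance prior. Without double-negative replicate 1 the same 4 genes missed it, at 1.51, 1.19, 0.77 and 0.72. Gpr15 did so also without double-positive replicate 1 (1.99), and Itgb8 without double-negative replicate 2 (0.68).

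Among further genes with large gains were regulators and enzymes. Peg10, an imprinted gene of retrotransposon origin, stood at 5.60 and 6.77 against 10.32 and 10.07 (difference 4.01, SE 0.29, adjusted p = 0.000122). It missed the threshold with all 16 arrays and with the 4 compared arrays alone. Zbtb16, which encodes PLZF, the transcription factor of innate-like T cells, stood at 6.14 and 6.33 against 9.74 and 8.00 (difference 2.63), and Arnt2, a partner of bHLH-PAS factors such as the aryl hydrocarbon receptor, at 6.85 and 6.58 against 9.19 and 9.16 (difference 2.46). Rora, a nuclear receptor of type 17 cells and of tissue Treg, rose by 0.85 (9.52 and 9.24 against 10.35 and 10.12). Frmd5 (3.47), Myadm (2.76), the carboxypeptidase Cpe (2.68) and Ankrd55 (2.57) rose as well. Alox8, a lipoxygenase, stood at 6.95 and 7.33 against 9.24 and 8.99 (difference 1.98), and Ltb4r1, the leukotriene B4 receptor, at 6.21 and 7.06 against 8.01 and 8.01 (1.38). Zbtb16 missed the threshold without double-negative replicate 1 (2.53), Arnt2 without double-positive replicate 2 (2.47), and Rora without double-negative replicate 2 (0.71) or either double-positive array (0.74 and 0.97). Ltb4r1 missed it without double-negative replicate 1 (0.95) or either double-positive array (1.38 and 1.37).

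Lum, which encodes the matrix proteoglycan lumican, stood at 4.34 and 5.11 on the double-negative and at 8.38 and 7.96 on the double-positive arrays (difference 3.44, SE 0.23, adjusted p = 7.87e-05). It was the 1 of 11 stromal and endothelial markers that rose. The 5 markers Dcn, Pdgfra, Cdh5, Kdr and Madcam1 lay below the array medians on all 4 arrays, and the summed linear intensity of the 11 was 1236 and 1565 on the double-negative and 1707 and 1403 on the double-positive arrays. The part of stromal cells in the difference was not tested.

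Genes of resting and central T cells were lower in double-positive cells. Bach2, the repressor that holds back effector genes, stood at 10.95 and 10.37 on the double-negative and at 7.34 and 6.63 on the double-positive arrays, 12.8-fold lower (difference -3.68, SE 0.38, adjusted p = 0.00118). St8sia1, the GD3 ganglioside synthase, stood at 8.79 and 9.07 against 5.84 and 5.88 (difference -3.07, SE 0.14, adjusted p = 5.45e-06). Dapl1, a marker of naive T cells, stood at 10.49 and 8.18 against 5.83 and 5.94 (difference -3.45). Treml2 (10.40 and 10.61 against 8.74 and 7.71), Actn1 (alpha-actinin, difference -1.71), Igfbp4 (8.62 and 7.76 against 6.51 and 6.48), Nsg2 (-1.29) and Lef1, a partner of beta-catenin in naive cells (10.64 and 10.44 against 9.73 and 9.33), fell as well. In all, 8 of 18 naive and central genes fell and 1, the gut receptor Ccr9, rose, with a median of -0.96 against 0.01 for all genes. The lymph node homing receptor Ccr7 stood at 12.10 and 11.05 against 11.37 and 11.15 (difference -0.31, adjusted p = 0.702), and the list holds Klf2 and S1pr1 with positive differences of 0.75 and 0.71 that missed the threshold. The falls numbered 4 without double-positive replicate 2 and 10 without double-negative replicate 2. Dapl1 missed the threshold without either double-positive array (-3.40 and -3.50), Igfbp4 without double-positive replicate 2 (-1.69), and Lef1 without double-positive replicate 2 (-0.82) or double-negative replicate 1 (-0.91). Nsg2 missed it without double-negative replicate 1 (-0.77) or either double-positive array (-1.41 and -1.17).

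**Figure D2:**
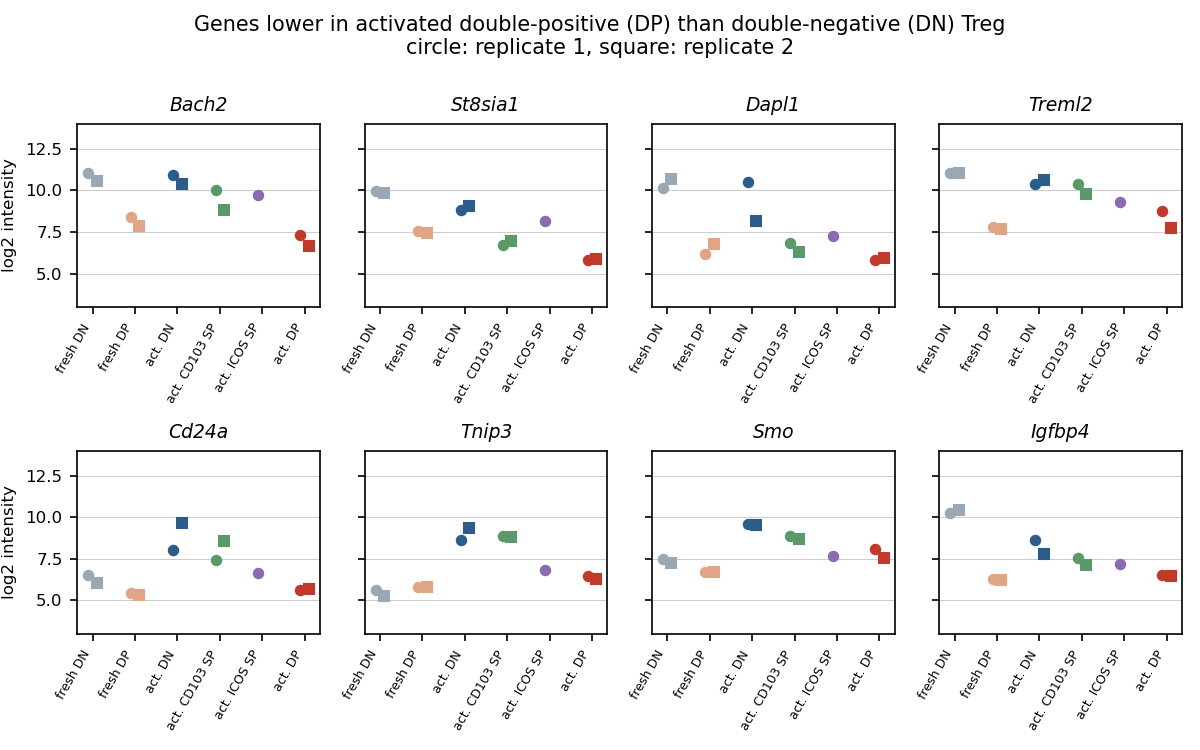
Log2 intensity (vertical axis) of 8 genes that fell, on the fresh double-negative and double-positive arrays and on the activated arrays kept of each subset. Each array has 1 point, with circles for replicate 1 and squares for replicate 2. Bach2, St8sia1, Dapl1, Treml2 and Igfbp4 were also clearly lower in fresh double-positive than in fresh double-negative cells, whereas the fresh groups lie close together for Tnip3.

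Outside that list, the largest falls were in genes of several functions. Cd24a, a glycosylated surface protein of immature and activated lymphocytes, stood at 8.01 and 9.66 against 5.62 and 5.66 (difference -3.19). Tnip3, which encodes an inhibitor of NF-kappaB signalling, stood at 8.60 and 9.38 against 6.46 and 6.31 (difference -2.61, SE 0.22, adjusted p = 0.000285). Smo, the signal transducer of the Hedgehog pathway, stood at 9.59 and 9.54 against 8.08 and 7.52 (difference -1.76, SE 0.19, adjusted p = 0.00151). Eno3, a muscle type enolase, fell by 2.74 on the log2 scale, Tm6sf1 by 2.32, Adcy6, an adenylate cyclase, by 1.72 and Pros1, the anticoagulant protein S, by 1.86. Aff3 (-2.55), Itm2a (-2.13), Ncf1, a subunit of the phagocyte NADPH oxidase (-2.09), and Ajuba (-1.96) passed too. Without double-positive replicate 2 Cd24a (-3.22), Eno3 (-2.57), Aff3 (-1.96), Itm2a (-2.14), Ncf1 (-1.79), Ajuba (-2.08) and Pros1 (-2.0) missed the threshold. Without double-positive replicate 1 this held for Itm2a (-2.12), Ncf1 (-2.40), Ajuba (-1.83) and Pros1 (-1.71). Without double-negative replicate 1 it held for Aff3 (-2.02), Itm2a (-2.04) and Ncf1 (-1.34), and Itm2a also missed it without double-negative replicate 2 (-2.21).

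Some targets and brakes of T cell receptor signalling were lower. Over all genes 0.732% fell and 0.958% rose. Of 25 immediate early genes 3 fell and 0 rose: Dusp6, a phosphatase of ERK (9.20 and 9.32 against 8.04 and 7.13, difference -1.67), Nr4a2, an orphan nuclear receptor (9.30 and 9.52 against 8.03 and 7.98, -1.40), and Egr2 (8.89 and 9.46 against 8.38 and 7.91, -1.03). Nr4a1, the common reporter of receptor signals, stood at 11.72 and 11.01 against 10.72 and 10.58 (difference -0.72, adjusted p = 0.31), and Fos, Jun, Junb and Cd69 had differences between -0.09 and 0.44 with no gene passing. The count was 0 after quantile normalization and 0 without double-positive replicate 2, where the 3 differences were -1.22, -1.38 and -0.80. All 3 also missed the threshold without double-negative replicate 2 (-1.61, -1.30 and -0.74), Dusp6 and Nr4a2 without double-negative replicate 1 (-1.74 and -1.51), and Nr4a2 without double-positive replicate 1 (-1.43). Bcl2l11, which encodes the death factor Bim, stood at 8.67 and 9.51 against 8.08 and 7.61 (difference -1.25). It missed the threshold without double-negative replicate 2 (-0.83) or either double-positive array (-1.49 and -1.01), and after quantile normalization (-1.06).

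Effector Treg genes were mostly higher in value, but few passed. Of 26 members 4 rose and 0 fell: Klrg1, Fgl2, a secreted suppressor (5.59 and 6.30 against 7.72 and 8.57, difference 2.20), S100a6 (7.70 and 8.51 against 9.78 and 9.95, 1.76) and S100a4 (6.41 and 6.06 against 7.75 and 8.01, 1.64). The median difference was 0.66, against 0.01 for all genes, and 22 of 26 were positive, against 10490 of all 19938. Prdm1, which encodes Blimp-1, stood at 7.33 and 9.90 on the double-negative and at 10.68 and 10.74 on the double-positive arrays (difference 2.10, adjusted p = 0.132). Il10 stood at 6.97 and 9.26 against 10.02 and 10.50 (2.15, adjusted p = 0.122), Ccr2 at 5.37 and 8.01 against 9.70 and 9.95 (3.13, adjusted p = 0.0543) and the checkpoint receptor Havcr2 at 7.57 and 9.20 against 10.29 and 10.17 (1.84, adjusted p = 0.0783). Gzmb, the granule protease granzyme B, stood at 10.24 and 12.81 against 12.39 and 12.70 (1.02, adjusted p = 0.667). In each of these 5 genes double-negative replicate 2 lay well above replicate 1, closer to the double-positive arrays. S100a6 missed the threshold without double-negative replicate 1 (1.36) or either double-positive array (1.85 and 1.68), after quantile normalization (1.81) and after median centring (1.69). Ccr2 and Havcr2 passed when dim genes were left out, where fewer genes are tested.

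Without double-negative replicate 2, 9 of the 26 effector genes rose and 1, Dgat2, fell. Prdm1 (3.38), Il10 (3.29), Ccr2 (4.45), Havcr2 (2.65) and Maf (2.98) then passed. Without double-negative replicate 1 the differences of Prdm1, Il10, Ccr2 and Havcr2 were 0.81, 1.0, 1.81 and 1.03, and none of these 4 passed. Double-negative replicate 2 also had the highest signal of several natural killer and cytotoxic genes. Klrd1 stood at 5.19 and 8.33 on the double-negative and at 4.37 and 4.85 on the double-positive arrays, Prf1 at 6.50 and 9.46 against 7.40 and 7.74, and Gzma at 7.52 and 10.85 against 9.44 and 9.92. The summed linear intensity of 14 CD8 T and natural killer cell markers was 2337 and 7588 on the double-negative and 2294 and 3230 on the double-positive arrays. Of the 14 markers 7 were below the array medians on all 4 arrays, Cd8a, Ncr1, Klrb1c and Eomes among them, and 0 passed. The part of these genes in the effector differences was not tested.

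Of 23 genes of suppression and cytolysis 3 rose, Fgl2, Nt5e and Itgb8, and 0 fell, against 0.958% and 0.732% of all genes. Nt5e, which encodes CD73, the ectoenzyme that makes adenosine, stood at 9.23 and 8.16 against 10.75 and 10.03 (difference 1.69). Nt5e missed the threshold without double-negative replicate 2 (1.15) or either double-positive array (1.33 and 2.05), and Fgl2 without double-negative replicate 1 (1.84) or double-positive replicate 2 (1.77). Tgfb1 lay between 11.67 and 11.88 on all 4 arrays, and Lrrc32, the TGF-beta anchor GARP, at 12.29 and 11.65 against 12.07 and 11.64. Of 20 Treg core genes Nt5e and Itgb8 rose and Gpr83, a G protein-coupled receptor of Treg, fell (10.54 and 10.03 against 9.17 and 8.85, difference -1.27), a call lost without double-negative replicate 1 (-1.01) or either double-positive array (-1.43 and -1.11) and after quantile normalization (-1.13). Ctla4 stood at 11.91 and 12.29 against 12.54 and 12.52, a difference of 0.42 that missed the threshold (adjusted p = 0.17).

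Cell cycle message differed little between the activated groups, and no gene of the list passed. Over all genes 1.69% passed, so 0 calls in a list this short does not set it apart. Of 29 cell cycle genes 0 passed in limma, here and in each alternative fit run for the activated contrast, although 28 had negative differences (median -0.32). Over all genes, 9448 of 19938 had negative differences. For 21 of the 29 cell cycle genes both double-positive arrays lay below both double-negative arrays, against 22% of all genes. The proliferation marker Mki67 stood at 11.74 and 11.60 on the double-negative and at 11.51 and 11.50 on the double-positive arrays (difference -0.16, adjusted p = 0.747). The cyclin gene Ccna2 stood at 11.83 and 11.56 against 11.51 and 11.40. Of the DNA replication genes 29 of 29 had negative differences (median -0.43), 23 had both double-positive arrays below both double-negative arrays, and 1, the cyclin gene Ccne1, fell (10.56 and 9.98 against 9.49 and 9.17, difference -0.94). Ccne1 missed the threshold without double-negative replicate 1 (-0.64) or either double-positive array (-1.10 and -0.78), and after quantile normalization (-0.81).

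Interferon-induced genes moved in both directions. Of 23, 4 rose and 2 fell, against 0.958% and 0.732% of all genes. Gbp3, a guanylate-binding protein, stood at 8.96 and 8.72 against 10.28 and 10.32 (difference 1.46, SE 0.14, adjusted p = 0.000828), and the antiviral genes Oas1a (1.01), Zbp1 (0.96) and Oas2 (0.82) rose. Usp18, a brake on interferon receptor signalling, fell from 10.38 and 10.63 to 8.87 and 9.64 (-1.25), and Ifit2 fell by 0.95 on the log2 scale. Oas1a and Oas2 missed the threshold without double-positive replicate 2 (0.91 and 0.73), and Oas2 also without double-negative replicate 1 (0.69). Zbp1 missed it without double-negative replicate 1 (0.73) or either double-positive array (1.09 and 0.83), and after median centring (0.89). Usp18 missed it without any array but double-positive replicate 2 (-0.87 to -1.38) and Ifit2 without any of the 4 (-0.80 to -1.10), and neither passed after quantile normalization. Of the metabolic and stress lists, 0 of 21 glycolysis and hypoxia genes, 0 of 17 sterol synthesis genes and 0 of 22 genes of endoplasmic reticulum stress passed, and the 1 of 23 TGF-beta pathway genes that rose was Itgb8. With 1.69% of all genes passing, counts of 0 or 1 in lists of this length do not set them apart. In lists that share genes with those above, 4 of 18 helper lineage genes rose (Il17a, Il13, Il17f and Rora), 2 of 22 S100, annexin and galectin genes (S100a4 and S100a6) and 2 of 17 lipid mediator genes (Alox8 and Ltb4r1). Of 19 quiescence factors 2 fell (Bach2 and Lef1). Of 24 effector transcription factors Rora rose and Nr4a2 fell, of 15 follicular T cell genes Il1r2 rose and Btla fell, and of 18 survival genes Bcl2l11 fell.

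**Figure D3:**
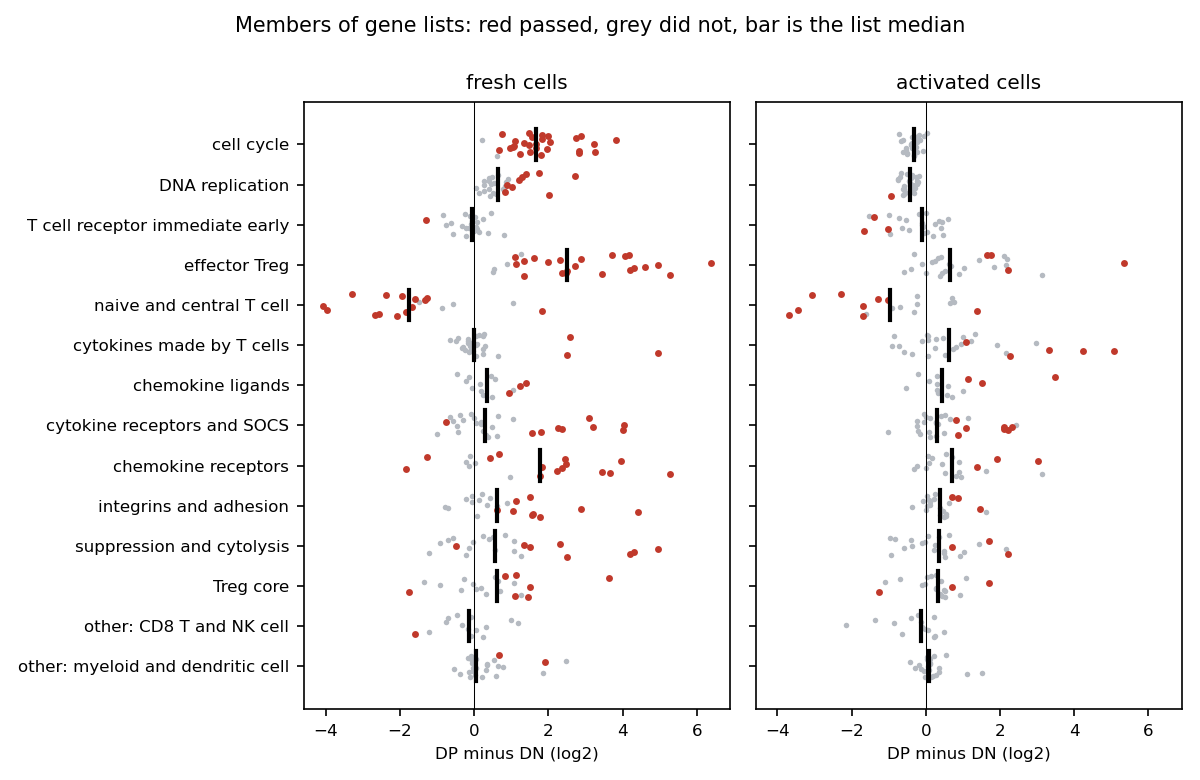
Double-positive minus double-negative log2 difference (horizontal axis) of each measured member of 14 gene lists in fresh (left) and activated cells (right), with members that passed in red, others in grey and the list median as a black bar. The cell cycle median is 1.67 in fresh and -0.32 in activated cells, and the effector Treg median 2.50 and 0.66.

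The same contrast in fresh cells used other arrays and gave 1087 genes, 5.45% of those tested (784 higher, 3.93%, and 303 lower, 1.52%). Of the 191 genes higher after activation 121 were also higher in fresh cells, which is 63.4% of the activated and 15.4% of the fresh list. Of the 146 lower ones 44 were also lower in fresh cells, 30.1% and 14.5%. Klrg1 (6.38 fresh, 5.35 activated), Cxcr6 (3.97 and 3.02), Myadm (2.77 and 2.76), Il18r1 (2.37 and 2.10), Bach2 (-2.68 and -3.68) and St8sia1 (-2.39 and -3.07) passed in both states. The 784 genes higher in fresh cells had a median difference of 0.30 after activation, with 567 positive. For all genes the median was 0.01, with 10490 of 19938 positive.

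**Figure D4:**
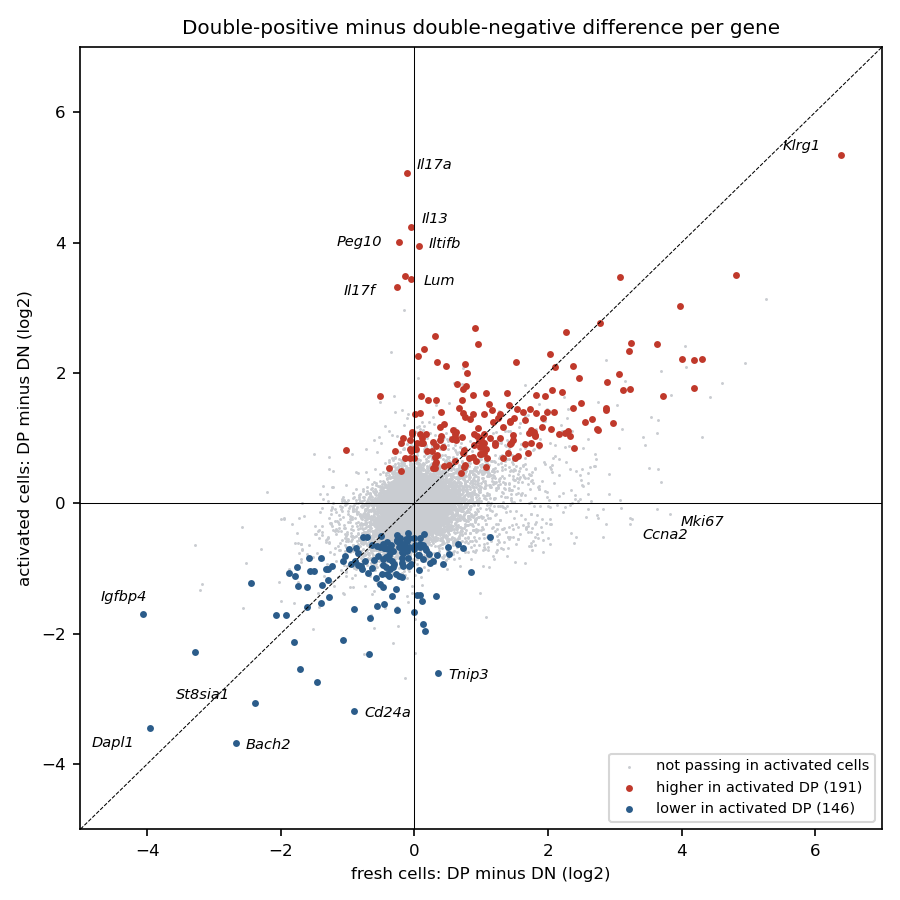
Double-positive minus double-negative log2 difference of each of 19938 genes in fresh (horizontal) and activated cells (vertical), with the 191 genes higher (red) and 146 lower (blue) after activation, and a dashed line where both are equal. Klrg1 and Bach2 lie far from 0 in both states, Il17a, Il13, Peg10 and Il17f near 0 in fresh cells, and Mki67 and Ccna2 near 0 in activated cells.

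Whether the difference itself changed with activation was tested as the activated minus the fresh difference, which passed for 304 genes (1.52%), 52 more positive (0.261%) and 252 more negative (1.26%). Of the named genes Il17a changed most in the positive direction. It stood at 5.89 and 6.08 on the fresh double-negative and 5.82 and 5.92 on the fresh double-positive arrays, and the Il17a difference grew by 5.18 (SE 0.35, adjusted p = 0.000287). Il13 (6.76 and 6.76 against 6.78 and 6.64 in fresh cells) gained 4.28, Peg10 4.25, Iltifb 3.88, Cxcl3 3.64, Il17f 3.58, Lum 3.49 and Csf2 2.21. These genes were thus low in all fresh double-positive and double-negative cells and separated the groups after culture. Igfbp4 also changed in the positive direction, but through a smaller fall. It fell in both states, by 4.07 in fresh and 1.70 in activated cells (change 2.37, adjusted p = 0.00685).

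Cell cycle genes were among the most negative. Of 29 members 24 passed in that test, all more negative after activation, with Mki67 at -3.99 (SE 0.30, adjusted p = 0.000287), Kif11 at -3.53 and Ccna2 at -3.49. In fresh cells 27 of the 29 were higher in double-positive cells (median 1.67). The count of 24 was 16 when only the 8 arrays of the groups compared were fitted. It was 17 without fresh double-positive replicate 2, 18 without activated double-positive replicate 2 and 19 without fresh double-negative replicate 2. Of the effector Treg genes 7 of 26 were more negative and 0 more positive (22 higher in fresh cells, median 2.50), a count that ran from 2 without either replicate 2 of the double-positive groups to 12 without activated double-negative replicate 1. Outside these lists Tnip3 (-2.96) was among the most negative, with a difference of 0.36 in fresh cells that missed the threshold (adjusted p = 0.532).

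The activated single-positive subsets were measured in the same way. As levels, Il17a stood at 10.80 on ICOS single-positive replicate 1 and at 5.99 and 6.49 on the CD103 single-positive arrays. Il13 stood at 12.27 there against 8.01 and 8.17 and Il17f at 10.41 against 6.88 and 7.81. Iltifb (7.51), Peg10 (8.08) and Lum (5.46) were lower on the ICOS single-positive array than on both double-positive arrays, while CD103 single-positive cells had 5.26 and 5.14, 6.45 and 6.74, and 4.19 and 4.57. Of the 191 higher genes, the ICOS single-positive array lay closer to the double-positive than to the double-negative mean for 155, and the CD103 single-positive mean for 36. Of the 146 lower genes these numbers were 101 and 36. Dapl1 stood at 6.85 and 6.28 in CD103 single-positive and at 7.28 in ICOS single-positive cells, between the double-positive and double-negative arrays. These counts rest on 1 ICOS single-positive array and were not tested. No such count was made over all genes. Whether either subset lay closer to double-positive cells in these genes than over all genes thus cannot be read from the counts.

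Markers of other cells that the culture could hold gave few calls. Over all genes 1.69% passed, so an absence of calls in lists this short does not set them apart from all genes. Of 11 B cell, 26 myeloid and dendritic, 14 CD8 T and natural killer and 10 erythroid and platelet markers 0 passed. Double-negative replicate 1 decided some of these: without it the B cell gene Cd79b (1.64) was higher and Klrd1 (-3.72) lower, both past the threshold, against 0.34 and -0.58 without double-negative replicate 2. The myeloid sum was 2621 and 2648 on the double-negative and 3935 and 3485 on the double-positive arrays, with 20 of 26 below the array medians on all 4, Lyz2, Itgam, Itgax, Csf1r and Cd14 among them. Of the 26 myeloid markers 20 had positive and 6 negative differences (median 0.08). Both double-positive arrays lay above both double-negative arrays for 10 of them and below for 2, against 26.4% and 22% of all genes. Cd74 (1.52, adjusted p = 0.291 in limma) and Cd68 (1.11, adjusted p = 0.275) missed the threshold. The part of myeloid cells in the difference was not tested. The B cell sum was 916 and 1194 against 1192 and 1127, with 9 of 11 below the medians, Ms4a1 and Cd79a among them. The erythroid and platelet sum was 613 and 538 against 651 and 609, with 8 of 10 below the medians. The list for activated conventional CD4 T cells, the responder cell type of the culture, has 12 measured genes, of which 3 rose, the same Il17a, Il13 and Csf2 as above. The summed intensity of the 12 was 2365 and 4445 against 18275 and 11127. That sum holds the 3 genes that rose, so it is no separate reading of such cells. Il2, Ifng, Il21, Cd40lg, Lta and Tnf of that list did not pass, and the part of such cells in the cytokine differences was not tested.

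How many genes passed depended on which arrays were fitted. With all 16 arrays 9 genes passed (Lum, Eno3, Akap6, Nid2, Prnp, Hey1, Adgrl2, Bach2 and Tex15). With the 4 arrays compared alone 8 passed (Il17a, Iltifb, Klrg1, Il18r1, Gpld1, Arnt2, St8sia1 and Itm2a), and with the 7 activated arrays kept 59. Without activated double-positive replicate 2 the count was 123, and 97 of the 337 genes were among them, and without activated double-negative replicate 2 it was 433. All 337 genes kept their direction in each of these fits. That was fixed in advance, because the arrays of the compared groups did not overlap on these genes.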

How the data were processed

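Per the labels' protocols, 270 ng of total RNA per sample was labelled with the WT Expression kit and hybridised to Affymetrix arrays, 16 in 8 groups of 2. The authors deposited log2 intensities, with 1 value per probe set, made with RMA in affy, going by the submitters' processing notes. The version and settings of RMA are not given here by any source, and no second normalization was applied. Intensities hold background, which understates differences of dim genes, and arrays carry no counting depth, so the number of arrays limits the precision.

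Of 35556 probe sets 21789 have 1 gene symbol, 1621 several and 12146 none. The brightest one-symbol probe set stood for each of 19938 genes, of which 19856 matched the RefSeq annotation of GRCm38.p6 by gene ID and 0 changed symbol. Gene positions are not printed, since the build of the array annotation is not stated.

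The values were fitted with limma 3.58.1 in R 4.3.3 on 15 arrays with 8 group means (7 residual and 3.20 prior degrees of freedom). Activated ICOS single-positive replicate 2 was left out. There were 3 contrasts, each adjusted over all genes: activated, fresh, and activated minus fresh. The fit was also run on simulated data with the same spread per gene in all groups. The real groups differed in spread, so that run does not test the fit under unequal spread. Genes named are the 15 largest passing differences in each direction, up to 4 passing members of each of 32 lists (533 of 574 listed genes measured), the 10 largest fresh and 8 largest activated minus fresh differences in each direction. Itgae, Icos, predicted, small RNA, histone, olfactory and antigen receptor genes were left out of the ranked part. Further members are given where a list's account needs them. The members, lists and rules were chosen with earlier results of these data known. Alternatives changed the arrays fitted, the replicate block, scaling, a dim gene filter, the choice of probe set and the variance prior. Promoter sequences come from RefSeq GRCm38.p6.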

Additional observations from a re-analysis of the deposited data

Results flagged for a closer look

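The double-positive minus double-negative difference differed between activated and fresh cells in the limma test of that change for 16 genes named by size, all with an adjusted p below 0.05. The change was positive for Il17a (5.18), Il13 (4.28), Peg10 (4.25), Iltifb (3.88), Cxcl3 (3.64), Il17f (3.58), Lum (3.49) and Arhgap20 (2.64). For Arhgap20 it came from fresh cells, where the difference was -3.28, against -0.65 in activated cells (adjusted p = 0.448), and the change missed the threshold in most fits that left out 1 array. The change was negative for Mki67 (-3.99), Kif11 (-3.53), Ccna2 (-3.49), Sccpdh (-3.36), Bub1 (-3.34), Top2a (-3.18), Knl1 (-3.0) and Tnip3 (-2.96). Of these 8, Tnip3 alone had a passing difference in activated cells, and the other 7 passed in fresh cells.

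The report uses no probe set with no symbol or with several. Of 13767 of them 7 passed between activated double-positive and double-negative cells, 5 higher and 2 lower, a share of 0.0508%.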

How the results depend on the processing

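All 337 genes kept their direction in every alternative that tested them (266 of them under the filter on dim genes, all 337 otherwise). Fits that only left out arrays could not have turned a direction, since the compared groups did not overlap on these genes. The activated count of 337 was 9 with all 16 arrays, 8 with only the 4 arrays compared and 59 with only the 7 activated arrays, where fewer arrays or a wider spread are part of the setting. Leaving out single arrays gave 123 (without activated double-positive replicate 2) to 433 (without activated double-negative replicate 2), with 224 without either fresh double-negative array, 221 without either fresh double-positive array and 199 without either fresh ICOS single-positive array. The fresh count of 1087 ran from 603 (without fresh double-negative replicate 2) to 1197, with 638 and 691 without fresh double-positive replicates 2 and 1. The activated minus fresh count of 304 was 193 with all 16 arrays, 146 with only the arrays of the groups compared, and 145 (without fresh double-positive replicate 2) to 348 with single arrays left out, with 152 without fresh double-negative replicate 2 and 162 without activated double-positive replicate 2. With the replicate number as a block the counts were 1116 (486 higher, 630 lower), 1959 and 717, and 8 named genes that otherwise missed the threshold passed (Prdm1, Ccr2, Havcr2, Gcnt1, Cd79b, Slc4a1, Ms4a4c and Bcl2). The labels do not say that a number marks an experiment, and there are only 2 numbers. The replicate 1 minus replicate 2 differences of the activated double-negative and double-positive pairs correlated at 0.27 across genes, and 20 of 21 pairs of groups lay over 0.1 (-0.02 to 0.75). Of 93 named genes 65 passed. Without double-positive replicate 2, 34 of the 65 lost their call, and without double-negative replicate 1, 24 lost it. The cause of these shifts was not tested. The activated minus fresh test gives no value when only activated arrays are fitted.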

Other observations

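Genes outside the rule for named genes, picked after their values were seen, also passed between activated double-positive and double-negative cells in limma. They come from no fixed list, and no group was tested. Lgmn, the lysosomal protease legumain, stood at 7.77 and 7.50 against 9.33 and 9.40 (log2 difference 1.73, adjusted p = 9.7e-05), and Ctsh, cathepsin H, at 5.37 and 5.07 against 7.50 and 6.92 (1.99). Beside Cpe (2.68), which the rule had already named, the carboxypeptidase Cpd (1.75) passed. The sheddases Adam19 (1.80) and Adam12 (1.09), the phosphodiesterase Smpdl3a (1.75) and the metalloprotease inhibitor Timp2 (1.03) passed too. Lgmn, Ctsh, Cpe and Smpdl3a also passed with any 1 of the 4 arrays left out, while Cpd, Adam19, Adam12 and Timp2 did not. Naip2, Naip5 and Naip6, sensors of bacterial proteins whose close sequences may share signal, rose by 1.40, 1.28 and 1.70, and missed the threshold without double-positive replicate 2 (1.22, 1.22 and 1.53). Beside Gbp3, the guanylate-binding protein genes Gbp5 (1.17) and Gbp7 (1.06) passed, Gbp5 not without either double-positive array (1.12 and 1.23).

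Among genes that were lower, Cblb, a ubiquitin ligase that limits activation, stood at 11.45 and 11.62 against 10.46 and 10.34 (difference -1.13, adjusted p = 0.0179). Dgkd, a diacylglycerol kinase, had -0.87 and Vav3, an exchange factor, -1.12. The DNA repair genes Brca2 (-0.79), Palb2 (-0.71), Fanci (-0.68), Xrcc6 (-0.67) and Mlh3 (-0.81) were lower by less than 2-fold. These 8 calls each missed the threshold without at least 1 of the 4 arrays, and all 8 did so without double-positive replicate 2. Prnp, which encodes the prion protein, fell from 7.87 and 8.06 to 6.41 and 6.51 (-1.51), and Hey1, a Notch target, had a difference of 1.41. Both passed with any 1 of the 4 arrays left out and with all 16 arrays.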
